A study of Mus musculus with 18 samples.

Results

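The transcripts described here are those of 10 genes that restrain the cell cycle or, for Mdm2, counter that restraint. They are the CIP/KIP inhibitors Cdkn1a, Cdkn1b and Cdkn1c, the INK4 inhibitors Cdkn2a, Cdkn2b, Cdkn2c and Cdkn2d, the tumour suppressor Trp53, its antagonist Mdm2, and the retinoblastoma gene Rb1. They were chosen by name, as the rows of the table of normalized counts that carry these symbols, and all 10 were found among 27179 genes. RNA was measured in cultured mesenchymal stem cells (MSCs), the adherent stromal cells of bone marrow, taken from C57BL6 mice that were 6 weeks old (young) or aged 18 to 24 months (old). The 18 libraries were made after 7 days of culture and fall into 6 of young MSCs, 6 of old MSCs and 6 of rejuvenated old MSCs. Rejuvenated old MSCs were old MSCs, 100000 per well, that had shared the medium with young MSCs across a membrane with pores of 0.4 µm, which cells do not cross. No old MSCs grown beside other old MSCs were analysed here, so the age of the neighbouring cells and their mere presence cannot be told apart.

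Cyclin-dependent kinases drive a cell from growth into DNA synthesis by phosphorylating Rb1, which otherwise holds the E2F transcription factors silent. INK4 proteins bind CDK4 and CDK6 and keep them from cyclin D, whereas CIP/KIP proteins bind cyclin-CDK complexes more broadly. p53, the product of Trp53, switches on Cdkn1a after DNA damage and other stress, and also Mdm2, whose product sends p53 to degradation. Cdkn2a encodes p16Ink4a and, from a first exon of its own, p19Arf, which blocks Mdm2. Lasting activity of the p53-p21 and p16-Rb branches is a hallmark of senescence, the stable arrest that cultured stromal cells enter with passage and stress.

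Libraries held 22936251 to 29559194 reads on genes. The young libraries had at most 3 reads of each of 4 Y-linked genes, although the study's methods name male mice, so whatever goes with the missing Y-linked RNA and donor age cannot be told apart in the comparison of young with old MSCs. The X-linked gene Xist ran from 21.2 to 41.2 normalized counts in young MSCs and from 1.97 to 14.4 in old MSCs. The summed level of 12 macrophage markers ran from 498 to 561 normalized counts in young MSCs, where 7 of the 12 never exceeded 3 reads. The same sum ran from 14710 to 18470 in old MSCs and from 14970 to 18320 in rejuvenated old MSCs. The part of macrophages in the values below was not tested, and in bulk RNA fewer cells of a type and less RNA per cell cannot be told apart. Of 11 MSC markers, Thy1 never exceeded 3 reads in old MSCs, and the other 10 exceeded 3 reads in at least 1 library of every group. Their levels still differed widely between young and old MSCs, in both directions. Means in young and old MSCs were 163 and 7340 for Eng, 9227 and 197400 for Cxcl12, 295 and 15.9 for Nt5e, and 14050 and 4075 for Pdgfra. The sum of 6 endothelial markers, mostly Cd34, ran from 6921 to 7301 in young MSCs, from 37.6 to 66.0 in old MSCs and from 46.3 to 421 in rejuvenated old MSCs. Rejuvenated old replicate 1 stood apart, since 43 genes with at most 3 reads in every old library and at least 100 in every young one reached 1.96% of their young level in it, against 0.0819% to 0.166% in the other 5 rejuvenated libraries. The calls, list counts and inhibitor shares of rejuvenated old MSCs are therefore given without it as well. Nothing shows whether libraries of a group came from separate animals, so p-values measure the spread between these libraries only. Genes of some chromosomes were shifted together between young and old MSCs. For young against old, the median log2 fold change relative to all autosomes was -0.72 on chromosome 16, -0.66 on chromosome 1 and 0.64 on chromosome 7. After co-culture it ran from -0.05 to 0.05 over the autosomes. The cause of these shifts was not tested.

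Promoter windows are shown for the genes where p53 meets its own circuit, and for both starts of Cdkn2a, whose products share one symbol in the table. RefSeq windows of 300 bases around start sites (build GRCm38.p6, from 250 bases before each) were matched for 8 of the 10 genes. Capitals mark 10-base matches to the p53 half-site consensus, which reads the same on both strands. Of 32851 windows over all genes, 8.36% held at least 1 match and 0.359% at least 2. The upstream start of Cdkn1a held 2 matches, whose first bases lie 73 and 51 bases before the start site, the downstream start of Cdkn1a (chr17:29093519-29093818) held 0, and Mdm2 held 1, at 186 bases before it. Trp53 and Cdkn2d windows also held 1 match each. Neither Cdkn2a window, nor that of Cdkn2b, held any. This motif was kept after counts of it and of the short motifs CATG and GGGCGG had been seen. A match describes the letters and not the binding of p53.
Cdkn1a, chr17:29090729-29091028, plus strand: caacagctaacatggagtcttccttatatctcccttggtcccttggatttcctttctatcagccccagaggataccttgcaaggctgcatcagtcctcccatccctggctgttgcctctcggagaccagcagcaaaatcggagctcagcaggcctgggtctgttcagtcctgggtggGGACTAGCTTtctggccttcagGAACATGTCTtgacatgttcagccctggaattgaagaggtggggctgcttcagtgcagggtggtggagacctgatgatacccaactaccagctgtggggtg
Mdm2, chr10:117710709-117711008, minus strand: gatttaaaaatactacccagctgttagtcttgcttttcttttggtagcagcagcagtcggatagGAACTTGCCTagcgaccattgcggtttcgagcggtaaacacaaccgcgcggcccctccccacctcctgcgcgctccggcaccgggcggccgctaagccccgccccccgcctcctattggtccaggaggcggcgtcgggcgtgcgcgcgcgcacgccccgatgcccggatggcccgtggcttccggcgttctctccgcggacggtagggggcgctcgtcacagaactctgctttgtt
Cdkn2a, upstream start, used by p19Arf, chr4:89294570-89294869, minus strand: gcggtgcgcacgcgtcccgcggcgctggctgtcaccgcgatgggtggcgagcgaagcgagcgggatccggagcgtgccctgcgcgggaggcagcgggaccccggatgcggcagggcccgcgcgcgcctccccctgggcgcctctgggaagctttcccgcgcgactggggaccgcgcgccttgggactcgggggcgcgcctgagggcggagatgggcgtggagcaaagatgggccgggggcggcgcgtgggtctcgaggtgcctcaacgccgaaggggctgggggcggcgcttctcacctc
Cdkn2a, downstream start, used by p16Ink4a, chr4:89282143-89282442, minus strand: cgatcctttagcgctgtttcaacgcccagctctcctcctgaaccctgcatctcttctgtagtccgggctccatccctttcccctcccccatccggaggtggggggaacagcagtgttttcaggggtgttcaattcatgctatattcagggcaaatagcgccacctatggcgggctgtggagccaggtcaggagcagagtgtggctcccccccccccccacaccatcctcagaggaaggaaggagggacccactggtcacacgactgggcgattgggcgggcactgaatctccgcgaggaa

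Between young and old MSCs the 10 genes split in both directions. Young MSCs had less Cdkn1a, Cdkn2b, Cdkn2d, Trp53, Mdm2 and Rb1, and more Cdkn1b, Cdkn1c, Cdkn2a and Cdkn2c. All 10 passed an adjusted p of 0.05 (limma on log2(normalized count + 1), Benjamini-Hochberg over 14353 genes with a mean of at least 10). That count has little meaning alone, since 85.7% of all genes tested passed in this comparison, 41.6% higher and 44.1% lower in young MSCs. A difference of at least 1 on the log2 scale was passed by 31.9% of all genes, and by each of the 10 except Cdkn2c. Cdkn1c was bound to differ, having met the limit on low values through young libraries alone, so no support is drawn from that count. A normalized count is a read number after division by the size factor of its library.

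**Figure D1:**
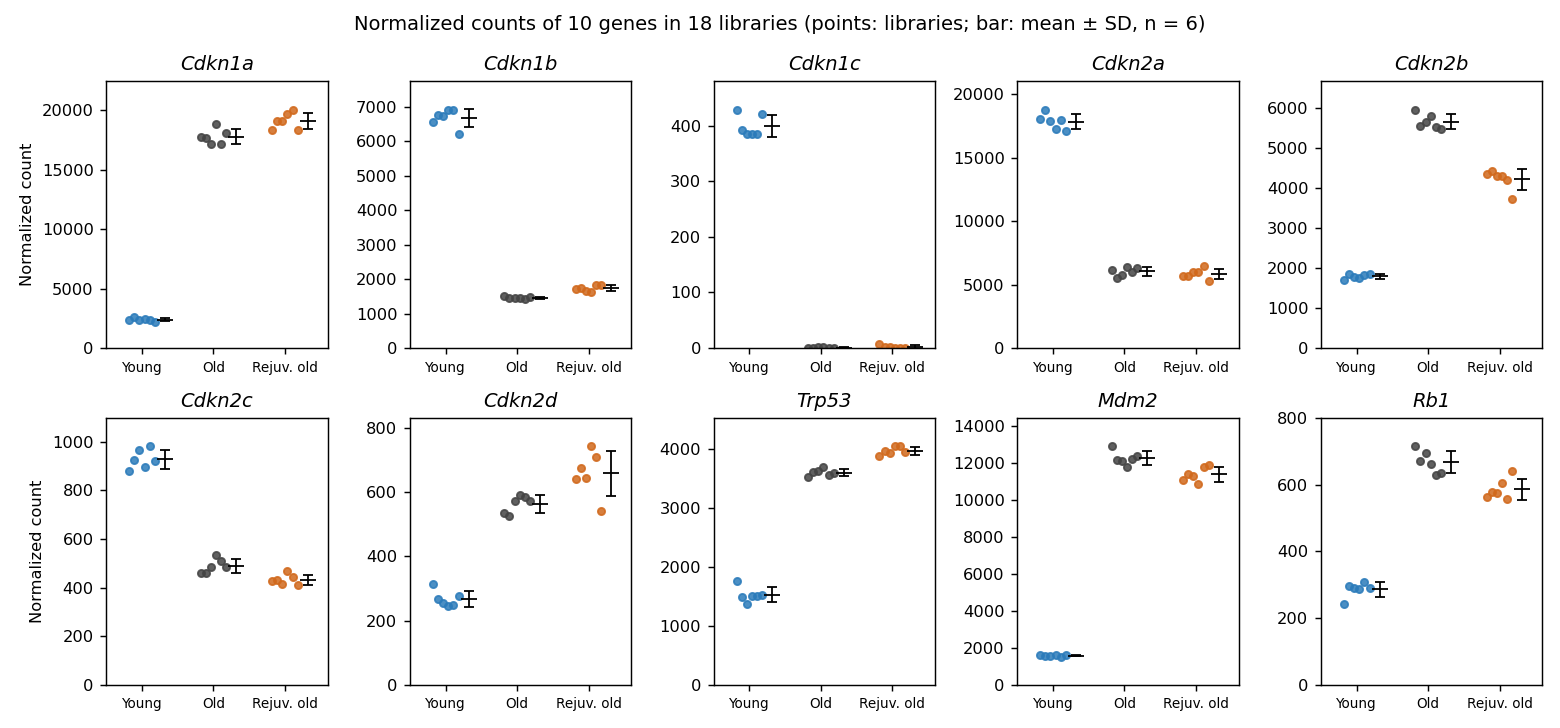
Normalized counts of the 10 genes (y axis, from 0) in young, old and rejuvenated old MSCs (x axis), with 1 point per library and mean ± SD of 6 libraries beside it. Young libraries lie clear of both other groups in every panel. Old and rejuvenated old libraries lie closer to each other, with separate ranges for Cdkn2b, Cdkn1b and Trp53.

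Cdkn1a (chr17:29090979-29100722, plus strand, GRCm38.p6 here and below) encodes p21, the main executor of p53-driven arrest. Normalized counts of the gene ran from 2202 to 2593 in young MSCs (median 2375), from 17117 to 18813 in old MSCs (median 17706) and from 18356 to 20040 in rejuvenated old MSCs (median 19053). Every young library lay far below every other library, and the old and rejuvenated ranges overlapped. The level was 7.47-fold lower in young than in old MSCs (log2 fold change -2.90, SE 0.0353, adjusted p 4.6e-26). Rejuvenated old MSCs were slightly above old MSCs, by 0.10 on the log2 scale (SE 0.0353, adjusted p 0.0226). This rise was small beside those of other genes, as 62.3% of all genes changed more. It missed the threshold when old replicate 3 (adjusted p 0.0549), old replicate 5 (0.0537), rejuvenated old replicate 4 (0.0504) or rejuvenated old replicate 5 (0.0534) was left out. With rejuvenated old replicate 1 left out, the rise was 0.11 (adjusted p 0.0162). Relative to the median gene of chromosome 17, an alternative chosen after seeing the data, it was 0.05 (adjusted p 0.249).

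Mdm2 (chr10:117688875-117710758, minus strand), both an antagonist and a transcriptional target of p53, had the largest fall among the genes in young MSCs. The normalized count ran from 1515 to 1614 in young MSCs (median 1591), from 11784 to 12891 in old MSCs (median 12185) and from 10843 to 11889 in rejuvenated old MSCs (median 11333). The young libraries formed a tight group apart, and the old and rejuvenated ranges met at their edges. The difference of young from old MSCs was 7.74-fold (log2 fold change -2.95, SE 0.0285, adjusted p 1.15e-27). In rejuvenated old MSCs Mdm2 fell by 0.11 on the log2 scale (SE 0.0285, adjusted p 0.00422), and by 0.10 without rejuvenated old replicate 1. Cdkn1a and Mdm2, which both respond to p53, thus moved the same way between young and old MSCs and opposite ways after co-culture, where both changes were small.

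Trp53 itself (chr11:69580348-69591873, plus strand) differed less than these targets. Normalized counts ran from 1376 to 1765 in young MSCs (median 1505), from 3517 to 3690 in old MSCs (median 3601) and from 3877 to 4043 in rejuvenated old MSCs (median 3952). None of the 3 ranges overlapped, and young replicate 1 was the highest young library by a margin. Trp53 was 2.36-fold lower in young than in old MSCs (log2 fold change -1.24, SE 0.0396, adjusted p 1.92e-18). After co-culture it rose by 0.14 (SE 0.0396, adjusted p 0.00637) and by 0.15 without rejuvenated old replicate 1. p53 is controlled largely through protein stability, which RNA does not show.

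Among CIP/KIP genes, Cdkn1b and Cdkn1c ran opposite to Cdkn1a. Cdkn1b (chr6:134920401-134925525, plus strand) encodes p27, which restrains cells at rest. Its normalized count ran from 6205 to 6924 in young MSCs (median 6745), from 1426 to 1500 in old MSCs (median 1456) and from 1615 to 1843 in rejuvenated old MSCs (median 1726). All 3 ranges stood apart, with the rejuvenated libraries just above the old ones. Young MSCs had 4.57-fold more than old MSCs (log2 fold change 2.19, SE 0.0343, adjusted p 3.09e-24), and rejuvenated old MSCs had 0.25 more on the log2 scale (SE 0.0343, adjusted p 4.91e-06). Without rejuvenated old replicate 1 the second difference was also 0.25.

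Cdkn1c (chr7:143458339-143461059, minus strand) encodes p57, an imprinted inhibitor active in quiescent stem cells. Normalized counts of the gene ran from 385 to 429 in young MSCs (median 389), which are 345 to 409 reads. Old libraries had 0 to 2 reads, and rejuvenated old libraries 0 to 8. Transcripts were thus at the floor of 3 reads in every old library. The young level was at least 123.6-fold higher than that floor, taken as the largest floor among old libraries (3.23 normalized counts), which covers counting error only. The difference of rejuvenated from old MSCs was 0.34 on the log2 scale (SE 0.418, adjusted p 0.552), with a 95% confidence interval of -0.53 to 1.21. It rested on rejuvenated old replicate 1, which held 8 reads, and was -0.06 (adjusted p 0.906) without it.

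Cdkn2a (chr4:89274473-89294619, minus strand) had the highest level per kb of the 10 genes in young MSCs, and its counts pool p16Ink4a with p19Arf. The normalized count ran from 17130 to 18797 in young MSCs (median 17936), from 5559 to 6377 in old MSCs (median 6086) and from 5299 to 6485 in rejuvenated old MSCs (median 5841). The young libraries all lay above the others, and the rejuvenated range enclosed the old one. Young MSCs had 2.96-fold more than old MSCs (log2 fold change 1.56, SE 0.0422, adjusted p 7.26e-20). Between rejuvenated old and old MSCs the difference was -0.05 on the log2 scale (SE 0.0422, adjusted p 0.412), with a 95% confidence interval of -0.13 to 0.04. With rejuvenated old replicate 1 left out, the difference was -0.04 (adjusted p 0.544).

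Cdkn2b (chr4:89306289-89311032, minus strand) lies beside Cdkn2a and encodes p15Ink4b, an inhibitor induced by TGF-beta. Its normalized count ran from 1700 to 1865 in young MSCs (median 1801), from 5468 to 5964 in old MSCs (median 5606) and from 3725 to 4424 in rejuvenated old MSCs (median 4302). The neighbours therefore ran in opposite directions with donor age, and no Cdkn2b range overlapped another. Young MSCs had 3.15-fold less Cdkn2b than old MSCs (log2 fold change -1.66, SE 0.0374, adjusted p 2.51e-21). Its fall after co-culture, by 0.43 on the log2 scale (SE 0.0374, adjusted p 6.26e-09), was the largest change that passed the test among the 10 genes, and 13.7% of all genes changed more. It fell by 0.44 without rejuvenated old replicate 1. Of 6 tested genes around this locus, Mtap, which lies on the far side of Cdkn2a from Cdkn2b, differed by -0.05 between young and old MSCs (adjusted p 0.137). Of these 6 genes, 2 were higher and 3 lower in young MSCs, and 1 rose and 1 fell after co-culture, also without rejuvenated old replicate 1. The shares that passed were 83.3% and 33.3%, beside 85.7% and 41.6% of all genes. Elavl2, among the higher genes and named after its values were seen, was at the floor in old MSCs. It met the limit on low values through young libraries alone, so no support is drawn from its call.

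Between young and old MSCs the remaining INK4 genes differed less than Cdkn2a and Cdkn2b. Cdkn2c (chr4:109660876-109666756, minus strand), which encodes p18, ran from 879 to 981 normalized counts in young MSCs (median 923), from 461 to 534 in old MSCs (median 483) and from 408 to 467 in rejuvenated old MSCs (median 429). Cdkn2d (chr9:21288459-21291421, minus strand), which encodes p19Ink4d and not p19Arf, ran from 244 to 313 in young MSCs (median 261), from 524 to 589 in old MSCs (median 571) and from 540 to 742 in rejuvenated old MSCs (median 660). For both genes the young libraries lay apart and the old and rejuvenated ranges overlapped. Cdkn2c was 1.90-fold higher in young than in old MSCs (log2 fold change 0.92, SE 0.0468, adjusted p 1.23e-14) and fell by 0.18 after co-culture (SE 0.0468, adjusted p 0.00409). Cdkn2d was 2.11-fold lower in young MSCs (log2 fold change -1.07, SE 0.0697, adjusted p 1.27e-12) and rose by 0.22 after co-culture (SE 0.0697, adjusted p 0.0141). Without rejuvenated old replicate 1 these changes were -0.18 and 0.23.

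Rb1 (chr14:73192858-73325951, minus strand), the pocket protein on which the INK4 branch converges, had the lowest per-kb level of the 10 genes in young MSCs. Normalized counts of the gene ran from 244 to 308 in young MSCs (median 291), from 629 to 715 in old MSCs (median 666) and from 556 to 641 in rejuvenated old MSCs (median 577). Young libraries lay below all others, and the other ranges overlapped. Rb1 was 2.33-fold lower in young than in old MSCs (log2 fold change -1.22, SE 0.0551, adjusted p 1.36e-15) and fell by 0.19 after co-culture (SE 0.0551, adjusted p 0.00886). It fell by 0.18 without rejuvenated old replicate 1 (adjusted p 0.0196). Of its exon bases, 105 overlap Rcbtb2 on the opposite strand. Exons of Cdkn1a and Cdkn1c also overlap opposite-strand transcripts, over 273 and 589 bases. The kit keeps strand, but the strand setting of the counting is not given in the sources used here, so reads of these overlaps cannot be assigned.

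Seen across the co-culture comparison, 8 of the 10 genes passed the test, against 41.6% of all genes tested. Cdkn1a, Cdkn1b, Cdkn2d and Trp53 were higher (4 of 10, against 21.0% of all genes), and Cdkn2b, Cdkn2c, Mdm2 and Rb1 were lower (4 of 10, against 20.6%). The count was also 8 without rejuvenated old replicate 1. These changes were small: none reached 0.5 on the log2 scale. The median absolute change over all genes was 0.15. Both comparisons share the old libraries, so their values are set side by side only. Against rejuvenated old MSCs, young MSCs still differed in all 10 genes, as did 85.6% of all genes. Cdkn1c was bound to differ here too, for the reason given above, so no support is drawn from that count. The log2 fold changes of young against rejuvenated old MSCs included -3.00 for Cdkn1a, -2.84 for Mdm2, -1.23 for Cdkn2b and 1.95 for Cdkn1b.

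**Figure D2:**
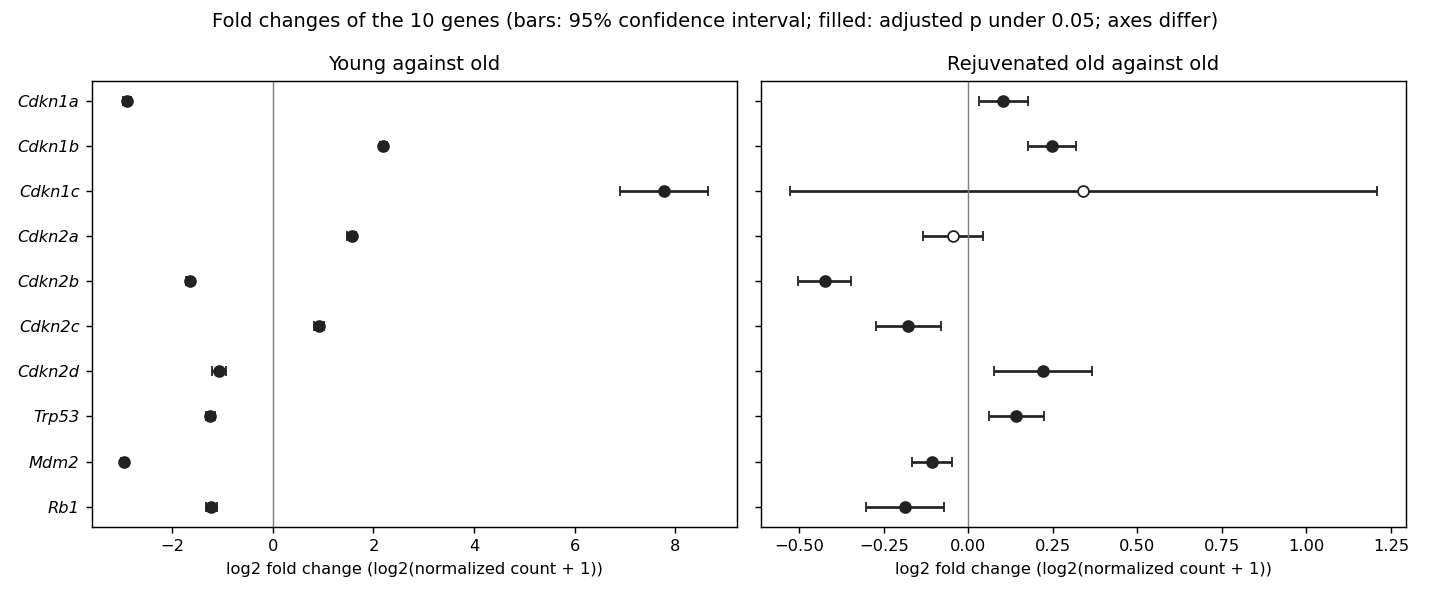
Log2 fold changes (x axes, which differ in range) of the 10 genes (y axis) for young against old MSCs on the left and rejuvenated old against old MSCs on the right, with 95% confidence intervals; filled points passed an adjusted p of 0.05. All points are filled on the left, and Cdkn1c and Cdkn2a are open on the right, where the filled points lie between -0.43 and 0.25.

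Read per length, as normalized counts per kb of exon, the order of the genes changed with donor age. In young MSCs Cdkn2a stood first at 15231 ± 512 (SD, n = 6), followed by Cdkn1b (1468 ± 58.5) and Cdkn2b (1291 ± 43.9), and Rb1 stood last at 61.5 ± 4.72. In old MSCs Cdkn1a stood first at 6538 ± 233, followed by Cdkn2a (5153 ± 272), Cdkn2b (4073 ± 136) and Mdm2 (3898 ± 116), and Cdkn1c stood last. Neighbours in the order were closer than the sum of their SDs in a few places. These were Cdkn1a and Trp53 in young MSCs (876 ± 46.9 and 817 ± 68.8), Cdkn1c and Cdkn2d in young MSCs (206 ± 10.3 and 181 ± 17.3), Cdkn2b and Mdm2 in old MSCs, and Cdkn2d and Cdkn1b in rejuvenated old MSCs (446 ± 47.4 and 381 ± 19.7). In rejuvenated old MSCs Cdkn1a was again first at 7022 ± 249, and Mdm2 (3618 ± 128) stood above Cdkn2b (3036 ± 182).

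Of the summed per-kb level of the 7 inhibitors, CIP/KIP genes made up 13.0% ± 0.334 in young MSCs, 41.2% ± 0.701 in old MSCs and 46.2% ± 0.979 in rejuvenated old MSCs (SD, n = 6). Within that sum Cdkn2a took 77.7% ± 0.403 in young MSCs and 30.9% ± 0.843 in old MSCs. Cdkn1a took 4.47% ± 0.150 and 39.3% ± 0.701. The pool of inhibitor transcripts was thus mostly Cdkn2a in young MSCs and was shared by Cdkn1a, Cdkn2a and Cdkn2b (24.5% ± 0.768) in old MSCs. In rejuvenated old MSCs the Cdkn2b share was 18.9% ± 0.913 and the Cdkn1a share 43.8% ± 0.838. Without rejuvenated old replicate 1 these shares were 18.7% ± 0.835 and 44.0% ± 0.838, and that of CIP/KIP genes was 46.3% ± 1.02 (SD, n = 5).

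**Figure D3:**
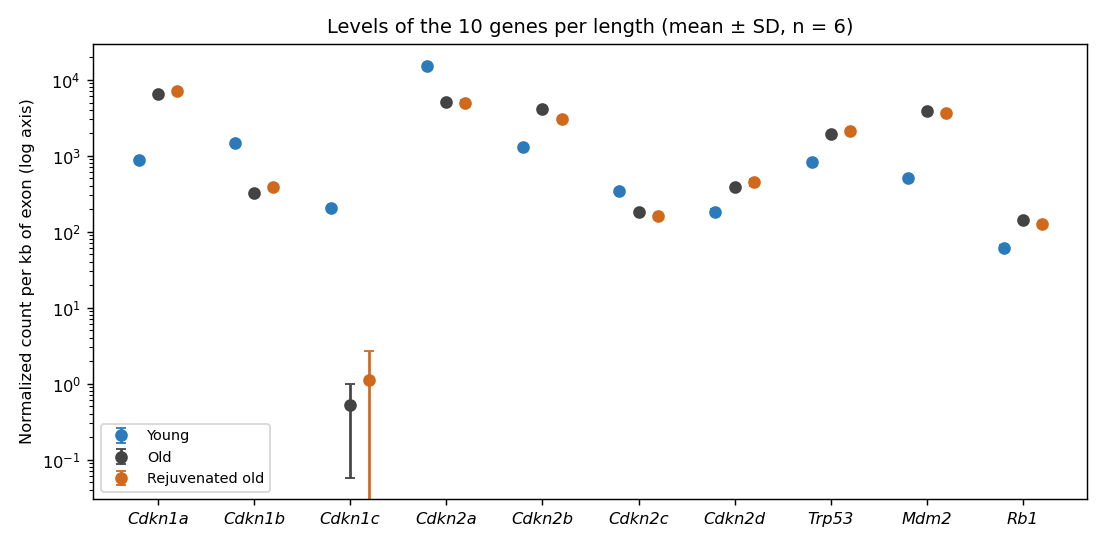
Mean normalized count per kb of exon (y axis, log scale) of the 10 genes (x axis) in young, old and rejuvenated old MSCs, with SD over 6 libraries; the lower bar of Cdkn1c in rejuvenated old MSCs runs off the log axis because its SD exceeds its mean. Cdkn2a leads in young MSCs at 15231 and Cdkn1a in old MSCs at 6538.

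Around these genes, lists of pathway genes are described by their counts of calls. Each count is to be read against all genes tested, of which 41.6% were higher and 44.1% lower in young than in old MSCs, and 21.0% were higher and 20.6% lower after co-culture. The median log2 fold change over all genes was -0.02 in the first comparison and 0.01 in the second. The first list held 35 p53 target genes. In young MSCs 27 were lower and 7 higher than in old MSCs, with a median log2 fold change of -1.71. Of the 27, 21 were lower by at least 1 on the log2 scale, and of the 7, 3 were higher by at least 1. Ptprv, a phosphatase gene induced by p53, was the most reduced, with a log2 fold change of -6.25 and means of 915.7 normalized counts in old MSCs and 11.2 in young MSCs. The log2 fold change was -4.39 for Gdf15, a stress-induced cytokine, and -3.60 for Ccng1 (cyclin G1). It was -3.45 for Phlda3, a repressor of Akt, -3.18 for Eda2r, a death receptor, and -2.98 for Zmat3, an RNA-binding protein. Smaller reductions were found for Fas, another death receptor (-2.04), Sesn2, a sestrin (-1.81), and Bax, an effector of apoptosis (-0.97). All of these named genes passed the test. The 3 genes higher by at least 1 were Perp, a desmosomal p53 target, Gadd45a, a growth arrest gene, and Ddb2, a sensor of DNA damage. Perp was at least 43.9-fold higher in young MSCs, with old MSCs at the floor. It met the limit on low values through young libraries alone, so no support is drawn from its call. Gadd45a and Ddb2, named after their values were seen, had log2 fold changes of 2.53 and 1.46. Rescaling to the same total or the same 75th percentile left 27 lower and 7 higher. Neither removes shifts of whole chromosomes. Over all alternatives without a fold limit, other than leaving out a library, 27 were lower and 6 to 7 higher. These include fold changes relative to the median of the chromosome, where Sesn1 was at 0.0023 (adjusted p 0.968) instead of -0.19. Sesn1 was named after its values were seen. The macrophage markers given above differed between the same groups, and their part in these values was not tested.

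After co-culture 19 of the 35 targets were lower and 1 was higher than in old MSCs, with a median log2 fold change of -0.16. Ptprv fell by 1.02 (SE 0.113, adjusted p 2.2e-07) and Eda2r by 0.57 (SE 0.0550, adjusted p 2.44e-08). Ccng1 (-0.26), Zmat3 (-0.23), Fas (-0.22) and Sesn2 (-0.18) also passed the test. Bax was at -0.13 (adjusted p 0.0515), Phlda3 at 0.08 (adjusted p 0.23) and Gdf15 at 0.15 (adjusted p 0.135), which did not pass. The gene that rose was Bbc3, the apoptosis gene Puma, by 0.16 (adjusted p 0.0449), named after its value was seen. Its call was lost in 12 of 29 alternative fits (adjusted p up to 0.208), among them the replicate block (adjusted p 0.0635), under which 0 targets were higher and 18 lower, and those that left out old replicate 1, 2, 3 or 6 or rejuvenated old replicate 2, 3, 4 or 5 (0.0591 to 0.101). Among the 19 lower genes, Rrm2b lost its call in 12 of 29 alternative fits (adjusted p up to 0.128), Btg2 in 11 (up to 0.0959) and Ephx1 in 3 (up to 0.069). Each of them lost it on leaving out some single libraries, and they were named after their values were seen. Without rejuvenated old replicate 1 the count was 17 lower and 1 higher. Trp53 rose in the same libraries. Of 12 macrophage markers, 1 passed the test between these groups, higher in rejuvenated old MSCs.

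**Figure D4:**
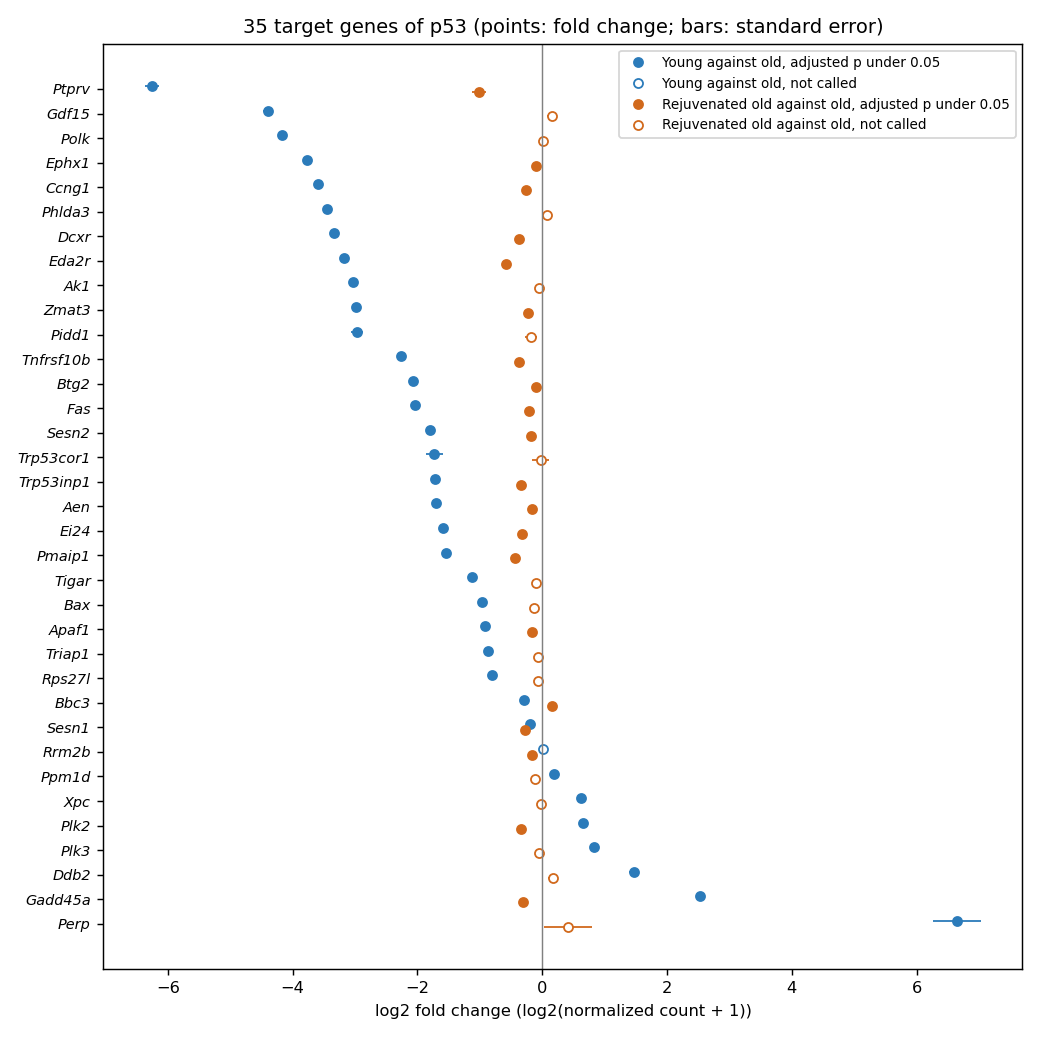
Log2 fold changes (x axis) of 35 p53 target genes (y axis, sorted by the young against old value) with standard errors, for young against old MSCs in blue and rejuvenated old against old MSCs in orange; filled points passed an adjusted p of 0.05. Most blue points lie far left of 0, and the orange points lie near 0 with 19 filled to its left and 1 to its right.

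Regulators and relatives of p53 moved in both directions. Of 19 tested, 7 were higher and 12 lower in young than in old MSCs, and 5 rose and 4 fell after co-culture (4 and 4 without rejuvenated old replicate 1). In all, 100% and 47.4% of the list passed, beside 85.7% and 41.6% of all genes. Mdm4, a partner of Mdm2 in restraining p53, was lower in young MSCs (-1.26, adjusted p 3.6e-12) and differed by -0.01 after co-culture (adjusted p 0.939). For young against old, the median gene of its chromosome 1 was at -0.69. Relative to the median of the chromosome, Trp53bp2 was at -0.02 (adjusted p 0.742) instead of -0.71, and Ep300 at -0.05 (adjusted p 0.387) instead of 0.14. Trp53bp2 and Ep300 were named after their values were seen. Trp63, a p53 relative, was higher in young MSCs (adjusted p 5.04e-19, means 1152 and 406.6 normalized counts) and rose by 0.22 after co-culture (adjusted p 0.0005). Trp73 was too low to be tested.

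Next come the kinases that these inhibitors bind, and their cyclins. Among 16 cyclins and CDKs, 13 were lower and 1 was higher in young than in old MSCs (median -0.36), and 4 rose and 1 fell after co-culture (5 and 1 without rejuvenated old replicate 1). The shares that passed were 87.5% and 31.2%, beside 85.7% and 41.6% of all genes. Relative to the median of each gene's chromosome, 10 were lower and 4 higher in young MSCs. Cdk4, Cdk6 and Cdk2 were lower in young MSCs (log2 fold changes -0.37, -0.45 and -0.60), and none passed the test after co-culture. D cyclins differed more: the log2 fold change of young against old MSCs was -3.23 for Ccnd2, -1.70 for Ccnd1 and -1.15 for Ccnd3. After co-culture Ccnd2 fell by 0.25 (adjusted p 7.25e-05) and Ccnd3 rose by 0.14 (adjusted p 0.00125), while Ccnd1 was at 0.08 (adjusted p 0.0807). Ccne1, the cyclin of the G1/S switch, was lower in young MSCs (-1.73) and rose by 0.22 after co-culture, and Cdk1, the mitotic kinase, rose by 0.42.

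Downstream, 12 pocket, E2F and DP genes were 2 higher and 7 lower in young MSCs, and 1 rose and 1 fell after co-culture, with and without rejuvenated old replicate 1. Rbl1 (p107) and E2f1 were lower in young MSCs (-1.09 and -1.06), as was Rbl2 (p130, -0.12, adjusted p 0.0211). The Rbl2 call was lost in 5 of 29 alternative fits, with an adjusted p of 0.385 when libraries were scaled to the same total and of 0.0509, 0.0514, 0.0734 and 0.05 without old replicate 4, old replicate 5, young replicate 2 and young replicate 3. Their co-culture differences of 0.07, 0.04 and -0.02 did not pass the test. Of 20 proliferation genes under E2F, 11 rose and 0 fell after co-culture (median 0.20), with 9 that did not pass. Pcna, the DNA clamp, rose by 0.14 (adjusted p 0.00202), and Mki67 was at 0.14 (adjusted p 0.28). Rrm2, of ribonucleotide reductase, and Cdc6, a replication licensing factor, both named after their values were seen, rose by 0.38 and 0.42. These were the largest rises of the list. Without rejuvenated old replicate 1, 9 rose and 0 fell. Leaving out 1 library at a time gave 9 to 13 that rose, and the other alternatives without a fold limit 9 to 11. Rrm1 and Top2a, counted among the 11 and named after their values were seen, lost their calls in 12 and 10 of 29 alternative fits (adjusted p up to 0.376 and 0.0849). In young MSCs 6 of the 20 were higher and 10 lower than in old MSCs. Relative to the median of the chromosome, Mcm4, Mcm6 and Bub1 lost their calls as lower (adjusted p 0.144, 0.669 and 0.0515). They were named after their values were seen. Mki67 was higher in young MSCs by 0.31, less than the median gene of its chromosome 7, at 0.61.

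Regulators of the Ink4-Arf locus include Polycomb proteins, which keep it silent, and the activator Ets2. Of 24, 10 were higher and 12 lower in young than in old MSCs, and 3 rose and 5 fell after co-culture, with and without rejuvenated old replicate 1. Bmi1 was lower in young MSCs (-0.42), and Cbx7 and Ezh2 were higher by 1.80 and 0.89. After co-culture Cbx7 rose by 0.36 (adjusted p 0.00207), while Bmi1 and Ezh2 did not pass the test. The T-box repressors differed most and in opposite ways: Tbx2 was lower in young MSCs (-4.27) and Tbx3 higher by 2.45. Tbx3 (-0.57), Ets2 (-0.44) and Hmga2 (-0.39) fell after co-culture, and Tbx2 was at -0.23 (adjusted p 0.251).

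Genes of p27 turnover and the FoxO factors, which drive Cdkn1b, were 6 higher and 4 lower of 10 in young MSCs, and 4 rose and 2 fell after co-culture (3 and 2 without rejuvenated old replicate 1). Foxo3 was lower in young MSCs (-1.44) and fell by 0.39 after co-culture (adjusted p 0.00185). Foxo4 was higher in young MSCs by 1.43 (adjusted p 1.7e-20) and rose by 0.23 after co-culture (adjusted p 2.49e-05). Foxo1 was higher in young MSCs by 0.20 (adjusted p 0.000282) and at 0.05 after co-culture (adjusted p 0.357). Foxo1 and Foxo4 were named after their values were seen. Skp2 and Cks1b, which mark p27 for degradation, rose by 0.14 each after co-culture (adjusted p 0.0422 and 0.0201). These calls were lost in 11 and 2 of 29 alternative fits, that of Skp2 on leaving out old replicate 2, 4 or 5 or rejuvenated old replicate 1, 2, 4 or 6 (adjusted p 0.0661 to 0.0955) and that of Cks1b on leaving out old replicate 4 (0.052) or rejuvenated old replicate 2 (0.0511). Skp2 was higher in young MSCs by 0.16, though at -0.04 relative to the median of its chromosome (adjusted p 0.533), and Cks1b was lower (-0.34).

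Other marks of senescent cells did not line up in one direction. Of 14, 6 were higher and 5 lower in young MSCs, and 7 rose and 3 fell after co-culture (6 and 3 without rejuvenated old replicate 1). Tnfrsf10b and Trp53inp1, named after their values were seen, are also on the p53 target list. Both are among the 5 that were lower and the 3 that fell. Lmnb1, a lamin lost from senescent nuclei, was lower in young MSCs (-0.33, or -0.09 with adjusted p 0.251 relative to the median of its chromosome) and at 0.10 after co-culture (adjusted p 0.285). Glb1, the source of senescence-associated beta-galactosidase, was higher in young MSCs by 0.46 and at -0.02 after co-culture (adjusted p 0.621). Cdkn3, a phosphatase that acts on CDK2, rose by 0.33 after co-culture (adjusted p 0.0459) and was at -0.09 in young MSCs (adjusted p 0.512). Its rise lost the call in 13 of 29 alternative fits (adjusted p up to 0.124), among them the replicate block (0.0732) and those that left out old replicate 1, 2, 4 or 5, rejuvenated old replicate 1, 2, 3 or 4, or young replicate 5 (0.0506 to 0.124).

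The secretory genes linked to senescence, 37 of which were tested, were 25 lower and 10 higher in young MSCs (median -0.79). After co-culture 17 rose and 7 fell (median 0.15), with and without rejuvenated old replicate 1. Leaving out 1 library at a time gave 15 to 17 and 7 to 8, and the other alternatives without a fold limit gave 15 to 20 and 7 to 8. The shares that passed were 94.6% and 64.9%, beside 85.7% and 41.6% of all genes. Il6, the classic member, had means of 14.6 and 30.5 normalized counts in old and rejuvenated old MSCs and rose by 1.08 (SE 0.285, adjusted p 0.00415). Igfbp4 and Igfbp5, which bind IGFs, rose by 1.08 and 0.95, the matrix protease gene Mmp3 by 0.62 and the chemokine gene Ccl2 by 0.34. The chemokine gene Cxcl1 was at 0.08 (adjusted p 0.452). In young MSCs Cxcl1 (-3.06) and Ccl2 (-0.43) were lower, whereas Mmp3, Igfbp4 and Igfbp5 were higher by 1.49, 2.12 and 2.23. Mmp12, a macrophage protease, was at least 200.2-fold lower in young MSCs, with young MSCs at the floor. Of the 37 genes, 2 were at the floor in either young or old MSCs, and no support is drawn from their calls. Igfbp6 was higher in young MSCs by 9.27.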

How the data were processed

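RNA from 18 cultures of mouse MSCs was sequenced. The authors aligned reads to mm10 with HISAT2, used StringTie and featureCounts for counting and DESeq2 for normalization; versions, annotation and strand setting are not given in the sources used here. Each deposited value is a signal, a gene's reads after division by the size factor of its library, and replicates were not pooled. Whole reads were recovered by finding each library's step: 100% of values lay within 0.01 of a whole read (largest departure 5.36e-05). Libraries held 22936251 to 29559194 reads.

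The test was limma 3.58.1 (R 4.3.3) on log2(value + 1), with 3 groups in one fit and a prior variance following the mean, over the 14353 genes whose mean reached 10. This scale understates fold changes of low genes. A gene was called at a Benjamini-Hochberg adjusted p below 0.05, and counted as at the floor in a group where no library exceeded 3 reads. Scripts were tested on simulated data. Python 3.11.15, pandas 2.3.3, numpy 2.4.6, scipy 1.17.1 and matplotlib 3.10.9 were used for tables and plots. Positions came from RefSeq GRCm38.p6, which held 25271 of 27179 genes, and exon overlaps from GENCODE M21.

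The 10 genes and 10 lists of pathway genes were written with earlier results of these data known. Named are the 10 genes, 42 pathway genes chosen by role, and, of 4 lists, the 2 largest called changes in each of young against old and rejuvenated old against old. Of the genes chosen by role, 1 is not reported here. Others are said to be chosen after seeing values. An exact permutation test planned for genes under the filter was not needed. Alternatives were pseudocounts of 0.5 and 10, no filter or a mean of at least 50, scaling to the same total or 75th percentile, fits of 2 groups, a replicate block, edgeR 4.0.16 and DESeq2 1.42.0 on recovered reads, a limit of 0.5 on the log2 fold change, and leaving out each of 18 libraries. Fold changes relative to the median of the gene's chromosome were added after seeing the data.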

Additional observations from a re-analysis of the deposited data

Results flagged for a closer look

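In 5 of 30 groups of 6 libraries (10 genes in 3 groups) the highest or lowest library lay far from the other 5, measured as its gap over the group's range; chance flags about 1 in 20 such groups. Cdkn1c was at 8.24 normalized counts in rejuvenated old replicate 1, against 0 to 1.90 in the other 5, and this library also stood apart in other young-specific genes. Cdkn2b was at 3725 in rejuvenated old replicate 6, against 4198 to 4424. Trp53 was at 1765 in young replicate 1, against 1376 to 1516, and Rb1 was at 244 in the same library, against 287 to 308. Mdm2 was at 1515 in young replicate 5, against 1580 to 1614. Leaving out any one of these libraries changed no call of these genes, and their causes were not tested.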

How the results depend on the processing

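Under every alternative with no limit on the fold change, 7 or 8 of the 10 genes passed between rejuvenated old and old MSCs, and 10 passed in both comparisons with young MSCs. Leaving out 1 library at a time gave 7 to 8, 10 to 10 and 10 to 10. Where a change of 0.5 on the log2 scale was also required, 0 genes passed between rejuvenated old and old MSCs, since the limit lies above every called change, and 1239 of all genes did. DESeq2 and edgeR each called 8. The direction of Cdkn1c between rejuvenated old and old MSCs reversed without rejuvenated old replicate 1, and leaving out 1 library at a time gave log2 fold changes of -0.0605 to 0.58; the cause was not tested. Cdkn1a lost its call in the settings named above, with log2 fold changes of 0.05 to 0.09. Same-numbered libraries did not deviate together (correlations -0.15 to 0.07 over 18 pairs). Such correlations cannot exclude that the numbers stand for a shared plating or batch. A replicate block gave 8, 10 and 10 of the 10 genes and changed none of their calls. Among the lists it moved the counts after co-culture of p53 targets (0 higher, 18 lower), secretory genes (16 higher) and other senescence marks (6 higher). The log2 fold changes of Cdkn1c in young against old MSCs depend on the pseudocount and the tool (5.22 to 8.66), so the bound given above is the value to read.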
